A study of Mus musculus with 16 samples.

Results

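The genes described here encode the proteins of the cytosolic ribosome. They were taken from the gene symbols of the deposited tables as those that consist of Rpl or Rps, a number and at most one of the letters a, x or l, together with Rplp0, Rplp1, Rplp2 and Rpsa. The rule found 80 symbols in all 16 tables, 49 of the large and 31 of the small subunit, and each stood above the lowest value in at least 2 libraries, so all 80 were used. The tables of the CD93 experiment held 26595 features and those of the drug experiment 36930. Rps3a met the rule in the CD93 tables alone and was not a member.

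RNA was taken from sorted bone marrow cells of mice aged 8 weeks after birth and made into libraries with a template-switching kit for small inputs. In the CD93 experiment, the leukaemia stem cells (LSC) came from mice with chronic myeloid leukaemia (CML), which had received LSK cells transduced with BCR-ABL1-GFP, the fusion oncogene of CML with a fluorescent marker. LSK cells are marrow cells that lack lineage markers and bear Sca-1 and c-Kit, the fraction that holds the blood stem cells. The groups were LSC that arose from CD93-/- LSK cells (KO LSC, 3 libraries), LSC from CD93-proficient BL/6 cells (WT LSC, 3), naive CD93-/- LSK cells (KO LSK, 2) and naive BL/6 LSK cells (WT LSK, 2). In the drug experiment, LSC were taken from BL/6 CML mice treated in vivo with MCP at 10 mg/kg (MCP LSC, 3) or with vehicle (Veh LSC, 3); the series title names metoclopramide. All leukaemias, KO and WT alike, carried BCR-ABL1 and grew in non-irradiated BL/6 recipients, which kept their own marrow. The labels give C57BL/6 as the strain of the WT and drug samples and say for no group whether its libraries are separate animals, so p-values measure the spread between these libraries, which may be technical. For the drug samples, whose titles and source entries disagree (LSC and LSK), the group follows the title.

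The cytosolic ribosome is built from a large subunit, which joins amino acids, and a small subunit, which reads the messenger RNA. Each subunit holds 1 copy of nearly every one of its proteins, so cells make them in near-equal number, and most ribosomal protein mRNAs begin with a C and a run of pyrimidines, the 5'TOP element, through which mTOR signalling and Larp1 set their translation. In blood formation these genes are known from human disease: loss of 1 copy of several of them causes Diamond-Blackfan anaemia, and loss of RPS14 is part of the 5q- syndrome.

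The start of the mRNA is shown for the members that passed the test in at least 1 of the comparisons below and had a start window, because the 5'TOP element lies there. RefSeq promoter windows of build GRCm38.p6 were available for 60 of the 80 members. Each line gives 15 bases before and 15 bases from the annotated start on the transcribed strand, and the capitals mark the unbroken pyrimidine run that covers the start. Where a member had several starts, the one with a C and pyrimidine run is shown, or else the first.
Rps9 (chr7:3704026-3704055, plus strand): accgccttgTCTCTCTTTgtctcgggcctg
Rps15 (chr10:80292416-80292445, plus strand): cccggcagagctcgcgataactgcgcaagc
Rps18 (chr17:33955651-33955680, minus strand): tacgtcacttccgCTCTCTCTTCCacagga
Rps21 (chr2:180257364-180257393, plus strand): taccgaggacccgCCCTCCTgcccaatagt
Rps24 (chr14:24490663-24490692, plus strand): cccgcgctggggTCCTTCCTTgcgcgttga
Rps26 (chr10:128626492-128626521, minus strand): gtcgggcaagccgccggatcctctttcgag
Rpsa (chr9:120127751-120127780, plus strand): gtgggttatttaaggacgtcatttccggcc
Rpl10a (chr17:28328456-28328485, plus strand): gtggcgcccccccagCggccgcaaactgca
Rpl13a (chr7:45128731-45128760, minus strand): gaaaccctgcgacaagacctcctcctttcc
Rpl23 (chr11:97782425-97782454, minus strand): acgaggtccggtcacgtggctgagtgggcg
Rpl27a (chr7:109519180-109519209, plus strand): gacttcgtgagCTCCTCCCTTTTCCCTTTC
Rpl31 (chr1:39367836-39367865, plus strand): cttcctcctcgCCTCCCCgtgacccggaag
Rpl35a (chr16:33056467-33056496, plus strand): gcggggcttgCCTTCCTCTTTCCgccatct
Rpl37 (chr15:5116598-5116627, plus strand): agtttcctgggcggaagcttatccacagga
Rpl37a (chr1:72711245-72711274, plus strand): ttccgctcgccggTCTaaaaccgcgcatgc
Rpl39l (chr16:10170213-10170242, plus strand): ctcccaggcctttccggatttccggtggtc
Of these 16, Rps18, Rps21 and Rpl35a had a C at the annotated first base, followed by at least 4 more pyrimidines, a pattern searched on the transcribed strand alone. Rps9, Rps24, Rpl10a, Rpl27a, Rpl31 and Rpl37a had a pyrimidine at the first base without meeting the pattern there, and the other 7 had a purine at that base, so no letter of theirs is in capitals. The pattern was met by 13 of the 60 matched members, or 21.7%, and by 3.01% of the 27025 genes in the table. A run of at least 8 pyrimidines within 20 bases of the start was present in 48.3% of the matched members and 18.4% of all genes. In the whole window of 250 bases before to 50 after the start, searched on both strands, CCGGAAG was present in 41.7% of members and 9.93% of all genes, CTCTTTCC in 16.7% and 3.57%, and TATAAA in 10% and 15.7%. The letters CTCTTTCC can lie inside a pyrimidine run and so overlap the first pattern. Annotated starts are single positions, and a match or its absence describes the letters in this window.

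Values are in RPKM (reads per kilobase of transcript and 1e+06 mapped reads), as inferred from the tables. Levels of different members are set side by side on that scale, but reads shared with pseudogenes or copies can shift a member's level. The order of members is therefore approximate. Each experiment was normalised by itself, so levels of the CD93 and the drug experiment are given side by side without a test. The libraries differed in how much of the transcriptome they held. Features above the lowest value numbered 1230 to 2967 in KO LSC, 5525 to 7956 in WT LSC, 14279 to 14906 in the LSK libraries, 15587 to 16447 in MCP LSC and 19554 to 20014 in Veh LSC. Read depth could be estimated from the steps between low values in 7 libraries, at 2.66 to 8.47 in units of 1e+06 reads, and in no KO LSC library. Cd93, the targeted gene, had 0.003, 44.3 and 0.003 RPKM in KO LSC against 0.003, 0.003 and 5.74 RPKM in WT LSC, and 1.01 and 2.10 RPKM in KO LSK against 5.34 and 22.9 RPKM in WT LSK. The library labelled KO LSC 2 therefore had more Cd93 than any WT LSC library, which goes against its label, and below, the calls and medians that use it are also given without it. Ly6a, which encodes Sca-1, was at 529 to 790 RPKM in LSK libraries and at most 5.41 RPKM in the LSC libraries of the CD93 experiment, and 8.43 to 23.9 RPKM in the drug experiment. The neutrophil gene S100a8 had 11100.2, 12064 and 18539 RPKM in KO LSC, 58652, 45367 and 35295 RPKM in WT LSC, 946 to 2787 RPKM in LSK cells and 63.2 to 145 RPKM in the drug experiment.

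Members together made up a large part of every library, with the highest shares in the LSC of the CD93 experiment. Their summed RPKM was 10.1, 10.6 and 12.6% of the column total in KO LSC, 10.8, 10.2 and 8.47% in WT LSC, 6.67 and 8.77% in KO LSK and 7.24 and 4.46% in WT LSK. In the drug experiment it was 4.96, 4.76 and 4.67% in MCP LSC and 4.32, 4.47 and 4.26% in Veh LSC. The KO and WT LSC ranges overlapped, as did those of KO and WT LSK, and the lowest MCP library lay above the highest Veh library. In bulk RNA, fewer cells of a type and less RNA per cell cannot be told apart, and a share also depends on what else the library holds.

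**Figure D1:**
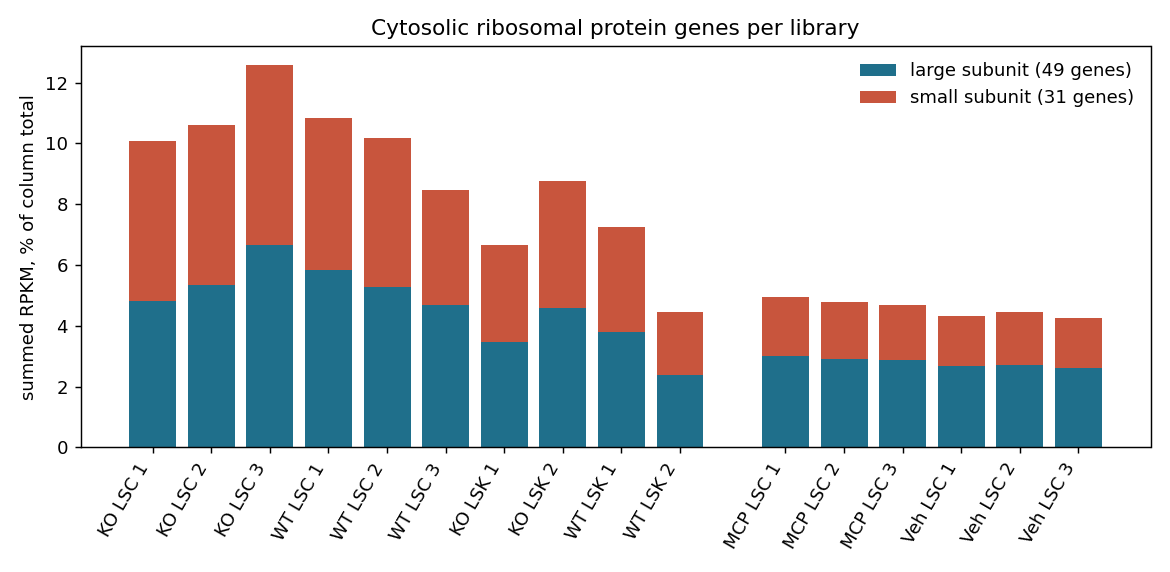
Summed RPKM of the 80 members as percent of the column total (y axis) in each of the 16 libraries (x axis), with the 49 large subunit members in blue below and the 31 small subunit members in red above. The bars reach 12.6% in KO LSC 3 and 4.47% in WT LSK 2, and the 6 bars of the drug experiment, normalised separately, lie between 4.26% and 4.96%.

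The large and small subunits stood in different proportion in the 2 experiments. The sum over large subunit members divided by the sum over small subunit members was 0.909, 1.01 and 1.13 in KO LSC, 1.17, 1.08 and 1.24 in WT LSC, 1.09 and 1.09 in KO LSK and 1.10 and 1.13 in WT LSK. It was 1.54, 1.58 and 1.61 in MCP LSC and 1.60, 1.54 and 1.60 in Veh LSC. The median member of the small subunit was higher than that of the large subunit in all 16 libraries, with 1195, 1277 and 1232 against 668, 978 and 681 RPKM in KO LSC and 1343, 1217 and 881 against 931, 893 and 744 RPKM in WT LSC.

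Single members spanned a wide range of RPKM although the ribosome holds their products in near-equal number. Rpl32, of the large subunit, led both LSK groups with 5998 ± 1637 RPKM in KO LSK and 4558 ± 2413 RPKM in WT LSK (SD, n = 2 each), and Rps9, Rps3 and Rps14 were among the first 5 in both. Rps15, a protein of the small subunit's head, led WT LSC with 7494 ± 1742 RPKM, and Rps9 led KO LSC with 14290.3 ± 2531 RPKM (SD, n = 3 each). In KO LSC the next were Rpl32, Rps18, Rps15 and Rpl8, a protein close to the peptidyl transferase centre. In WT LSC they were Rpl32, Rps9, Rpl13a and Rpl8. The drug experiment had another order, with the stalk protein gene Rplp1 first at 2996 ± 112 RPKM in MCP LSC and 2548 ± 213 RPKM in Veh LSC (SD, n = 3 each). Rpl8 and Rps3, a protein at the mRNA entry, came next in both drug groups. Rps26 was also among the first 5 in MCP LSC, and Rpl4 and Rplp0 were in Veh LSC.

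At the other end stood 3 paralogs that are known for expression in other tissues. Rpl10l, a testis paralog of Rpl10, reached at most 0.566 RPKM in any library. Rpl39l, a paralog of the exit tunnel protein gene Rpl39, had 1.67 and 2.37 RPKM in KO LSK and 1.10 and 0.865 RPKM in WT LSK, and stood at the lowest value in each of the 6 LSC libraries beside them. Rpl3l, the muscle paralog of Rpl3, was at most 1.89 RPKM outside the library WT LSC 3, where it had 59.7 RPKM. Rps27l, a paralog of Rps27 known as a target of p53, stood above these 3 paralogs in every library but KO LSC 3. It had 671, 1125 and 0.003 RPKM in KO LSC, 319, 638 and 939 RPKM in WT LSC, 1163 and 1686 RPKM in KO LSK and 1476 and 769 RPKM in WT LSK. Rps27 had 958, 386 and 503 RPKM in KO LSC, 838, 1056 and 609 RPKM in WT LSC, 636 and 883 RPKM in KO LSK and 799 and 318 RPKM in WT LSK, so Rps27l was the higher of the pair in all 4 LSK libraries. In the drug experiment Rps27l had 119, 116 and 111 RPKM in MCP LSC and 79.6, 99.0 and 99.7 RPKM in Veh LSC, above Rps27 at 63.5, 58.1 and 62.5 RPKM and 49.4, 53.1 and 44.0 RPKM. Rps27rt, a retrotransposed copy of Rps27 that may share its reads, stood above both genes in every drug library, at values given further below. The order of Rps27l and Rps27 in the drug experiment is therefore uncertain. Rps27rt was not among the genes tested in the CD93 experiment, so reads shared with it cannot be judged there. The order of the pair in the LSK libraries is thus uncertain as well. By mean log2(RPKM + 1), the next lowest members were Rps10 and Rpl14 in KO LSC, Rps7 and Rpl9 in WT LSC, Rpl7a and Rps12 in both LSK groups, and Rps12 and Rpl9 in both drug groups.

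The spread between replicates differed widely between groups. The range of log2(RPKM + 1) within a group had a median over members of 1.45 in KO LSC, 0.68 in WT LSC, 0.61 in KO LSK, 1.01 in WT LSK, 0.12 in MCP LSC and 0.18 in Veh LSC. In KO LSC, 58 of the 80 members differed by more than 1 log2 unit between libraries. Across the 80 genes, Spearman's rho between libraries of a group was 0.590 to 0.799 in KO LSC, 0.909 to 0.950 in WT LSC, 0.986 in KO LSK, 0.979 in WT LSK, 0.992 to 0.995 in MCP LSC and 0.980 to 0.997 in Veh LSC; genes are not independent replicates. KO LSC 3 stood apart, with the highest value of 10 libraries in 23 and the lowest in 22 of the 77 members left without Rpl3l, Rpl10l and Rpl39l. In that library Rpl14, Rplp0 and Rps27l were at the lowest value, while Rpl22 had 6895 RPKM against at most 1636 RPKM in the other KO LSC libraries.

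**Figure D2:**
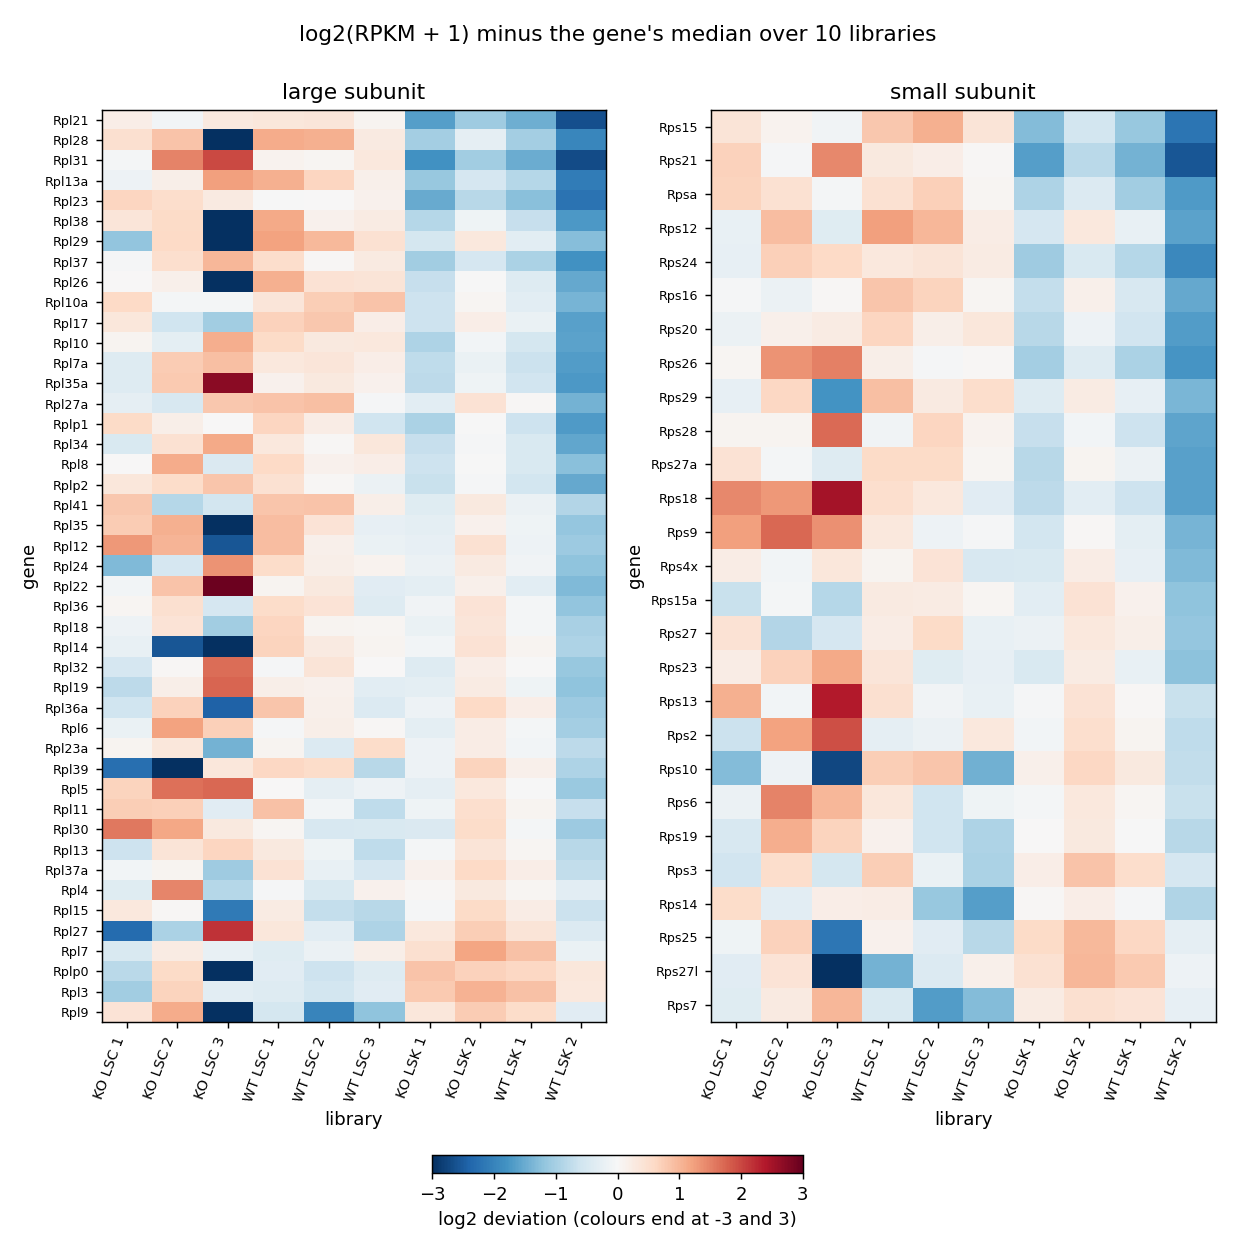
Deviation of log2(RPKM + 1) from the gene's median over the 10 libraries of the CD93 experiment, for 72 members (rows, ordered by the WT LSC minus WT LSK difference; large subunit left, small subunit right) and libraries (columns). Red is above and blue below the median. KO LSC 3 holds the strongest colours of both kinds, and WT LSK 2 is the lowest library for 43 of the 72 members shown.

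KO against WT in LSC asked whether the genes differ when the leukaemia lacks CD93. They did not move as a group: 33 members had a positive and 47 a negative difference, and the median was -0.12 (log2), against -0.77 over all 13485 genes tested. Rps9 (chr7:3703993-3706897, GRCm38, plus strand), which encodes a small subunit protein that takes part in decoding, was the 1 member that passed the test. It had 12313, 17143 and 13415 RPKM in KO LSC against 6546, 4714 and 5067 RPKM in WT LSC. All 3 KO libraries lay above all 3 WT libraries, and the difference was 1.39 ± 0.32 (log2, SE; limma, Benjamini-Hochberg adjusted p = 0.0347). Of 79 members tested, 1 was thus called higher and 0 lower, against 0.0742% and 8.74% of all genes. An unadjusted limma p under 0.05 was found in 5 members, against 2843 of the 13485 genes tested. Without the library labelled KO LSC 2 the member median was -0.25, 0 members were called, and the difference of Rps9 was 1.25 with limma adjusted p = 0.107. Without each of the other 5 libraries in turn the adjusted p was 0.0573 to 0.119.

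Other members separated the groups below the threshold. Rps18 had 6459, 5838 and 13506 RPKM in KO LSC against 3388, 2958 and 1899 RPKM in WT LSC, without overlap (difference 1.58 ± 0.45, limma adjusted p = 0.0825). Of the large subunit, Rpl5, which carries the 5S ribosomal RNA, had 1089, 2166 and 2274 RPKM in KO LSC against 692, 569.6 and 613 RPKM in WT LSC (difference 1.49 ± 0.50, limma adjusted p = 0.16). Rpl30 had 2228, 1654 and 902 RPKM in KO LSC against 763, 526 and 542 RPKM in WT LSC (difference 1.31 ± 0.55, limma adjusted p = 0.228). In both genes every KO library lay above every WT library. Without the library labelled KO LSC 2 the differences were 1.81 for Rps18, 1.34 for Rpl5 and 1.24 for Rpl30 (limma adjusted p = 0.0822, 0.312 and 0.369). Altogether 6 members were higher in every KO than in every WT library (Rpl5, Rpl23, Rpl30, Rps7, Rps9 and Rps18), against 0.564% of all genes, and 7 were lower in every one (Rpl14, Rpl26, Rps15a and Rps16 among them), against 14.1%. Under quantile normalisation the split of calls was 0 higher and 1 lower, with a median of -0.48. Of all 13485 genes tested, 56 were then called higher and 1275 lower.

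KO against WT in LSK cells showed small differences in 1 direction in nearly all members, and none passed the test. A positive difference was found in 78 of 80 members, with a median of 0.60 (log2) against -0.11 over all genes. Limma called 0 of 79 members in either direction, against 0.816% higher and 1.02% lower of all genes. An unadjusted limma p under 0.05 was found in 1 member, Rpl39l, against 1173 of the 13485 genes tested. The WT libraries differed among themselves by more than the member median of 0.60. In WT LSK 2 all 77 members compared were lower than in WT LSK 1, with a median ratio of 0.494. Against WT LSK 1, KO LSK 1 had a median ratio of 0.881 with 71 members lower, and KO LSK 2 had 1.32 with 77 higher. The median difference was 0.11 without WT LSK 2 and 1.11 without WT LSK 1. WT LSK 2 also had the highest Kit (99.3 RPKM, against 14.2 to 23.6 RPKM in the other LSK libraries) and the highest Cd34 (696 against 129 to 317 RPKM), and the lowest S100a8 and C1qb, a macrophage gene (294 against 697 to 1065 RPKM), and the lowest sum of the 6 mitochondrially encoded transcripts, a sign of RNA quality (8244 against 10209 to 16258 RPKM); their part in the result was not tested.

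Rpl39l and Rpl21 had the smallest p of the large subunit in LSK cells, and Rps15 and Rps9 of the small subunit. Rps15 had 1778 and 2964 RPKM in KO LSK against 1989.8 and 946 RPKM in WT LSK, and the groups overlapped (difference 0.74 ± 0.45, limma adjusted p = 0.95). Rpl21 had 584 and 884 RPKM in KO LSK against 665 and 293 RPKM in WT LSK (difference 0.70 ± 0.51, limma adjusted p = 1). For Rps9 the values were 3563 and 5381 RPKM in KO LSK against 4236 and 1989 RPKM in WT LSK (difference 0.59 ± 0.40, limma adjusted p = 1). Rpl39l, at the low values given above, differed by 0.60 ± 0.18 (limma adjusted p = 0.235). It stayed uncalled in 10 of 11 refits, with differences of 0.28 to 0.95 over all 11, and the other refit left 1 KO LSK library. Both KO libraries lay above both WT libraries for Rpl22, Rpl28, Rpl39l, Rplp0, Rps14, Rps19 and Rpsa, 7 members against 14.0% of all genes, and below them for Rpl3l, 1 member against 20.5%.

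LSC against naive LSK cells in WT asked which members differ with leukaemia. Most were higher in the LSC: 66 of 80 had a positive difference, and the median was 0.80 (log2), 0.82 for the large and 0.78 for the small subunit, while the median over all genes was -1.94. The test called 11 members higher and 1 lower of 79, against 1.45% and 42.3% of all genes. All features above the lowest value were fewer in the WT LSC libraries, as given above, so RPKM was spread over fewer genes there. The 6 mitochondrially encoded transcripts summed to 25088 to 40808 RPKM in WT LSC against 8244 to 13067 RPKM in WT LSK. The 8 neutrophil markers summed to 63606 to 109521 RPKM in WT LSC, with 5 to 8 of them above the lowest value, against 1966 to 5624 RPKM in WT LSK, with 6 to 7 above it. The 10 stem cell markers summed to 29.2 to 114 RPKM in WT LSC, with 3 to 5 above the lowest value, against 1689 to 2619 RPKM in WT LSK, with 10 above it. The part of these differences in the result was not tested.

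Rps15 (chr10:80292453-80294114, GRCm38, plus strand) had the largest difference. It had 7673, 9139 and 5669 RPKM in WT LSC against 1989.8 and 946 RPKM in WT LSK, and every LSC library lay above both LSK libraries (difference 2.42 ± 0.41, limma adjusted p = 0.00163). Rpl21, a large subunit gene, had 2341, 2386 and 1964 RPKM in WT LSC against 665 and 293 RPKM in WT LSK (difference 2.33 ± 0.46, limma adjusted p = 0.00394). Rpl31, which lies at the mouth of the exit tunnel, had 975, 940.4 and 1133 RPKM in WT LSC against 325 and 141 RPKM in WT LSK (difference 2.23 ± 0.72, limma adjusted p = 0.0373). All 3 rose without overlap between the groups. Rps21 differed by 2.17 ± 0.60, with 1607, 1496 and 1347 RPKM in WT LSC against 492 and 219.7 RPKM in WT LSK (limma adjusted p = 0.0197). Rpl13a, also known for silencing inflammatory mRNAs outside the ribosome, had 5490.0, 4081 and 2895 RPKM in WT LSC against 1429 and 607 RPKM in WT LSK (difference 2.11 ± 0.57, limma adjusted p = 0.0171). Also called higher were Rpsa, Rpl23, Rps24, Rpl37 and Rps20, with differences of 1.51 to 1.79 and limma adjusted p of 0.00963 to 0.0198.

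The member called lower was the paralog Rpl39l, which had no signal in 3 of 3 WT LSC libraries and the low WT LSK values given above, close to the detection limit in both (limma adjusted p = 0.00153). Counted by separation alone, 38 members were higher in every LSC library than in both LSK libraries, against 6.29% of all genes, and 6 were lower, against 56.3%. Rpl3, Rpl9, Rpl39l, Rplp0 and Rps7 were among those 6. Rpl3, a protein next to the peptidyl transferase centre, had 248, 222 and 256 RPKM in WT LSC against 605 and 409 RPKM in WT LSK (difference -1.04 ± 0.67, limma adjusted p = 0.26). Rplp0, the base of the stalk, had 763, 627 and 734 RPKM in WT LSC against 1465 and 1206 RPKM in WT LSK (difference -0.91 ± 2.69, limma adjusted p = 0.827). That SE came from a model of all 4 groups, which took in KO LSC 3, where Rplp0 had 0.003 RPKM. A model of WT LSC and WT LSK alone called 15 members higher and 1 lower, and the 1 called lower was Rplp0. Differences of single members ran from -1.34 (Rpl9) to 2.42 (Rps15). Without WT LSK 2 the calls were 4, namely Rpl21, Rpl23 and Rps15 higher and Rpl39l lower, with a median of 0.34, and without WT LSK 1 they were 18 with a median of 1.37. Without WT LSC 1 or without WT LSC 2 the calls were 7 each.

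**Figure D3:**
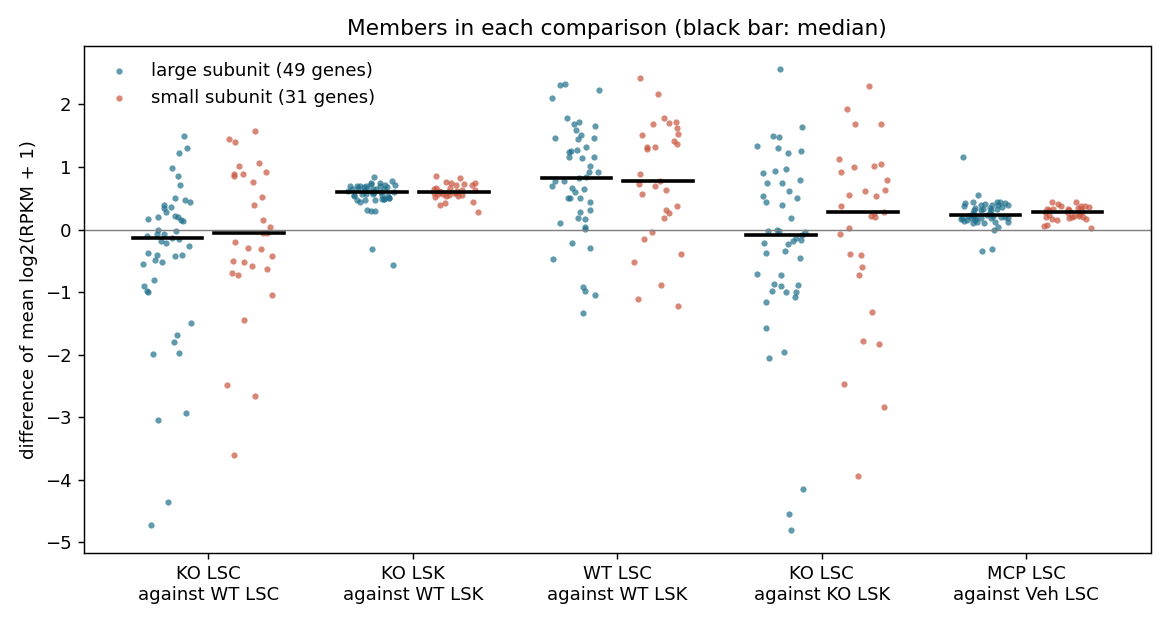
Difference of mean log2(RPKM + 1) for each of the 80 members (points) in 5 comparisons (x axis), large subunit members in blue and small subunit members in red, with black bars at the medians. The LSK and MCP comparisons form narrow bands around 0.60 and 0.25, and the comparisons with KO LSC spread over more than 5 log2 units.

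LSC against LSK in KO showed no common direction, with 40 members positive, 39 negative and a median of 0.01 (log2), against -3.06 over all genes. The test called 8 members higher and 2 lower of 79, against 0.564% and 61.7% of all genes. Rpl31 had 878, 2549 and 3605 RPKM in KO LSC against 259 and 440.3 RPKM in KO LSK (difference 2.57 ± 0.72, limma adjusted p = 0.0156). Rps18 had 6459, 5838 and 13506 RPKM in KO LSC against 1383 and 1924 RPKM in KO LSK (difference 2.29 ± 0.50, limma adjusted p = 0.00497). Rps9 differed by 1.69 ± 0.36 between the values given above (limma adjusted p = 0.00446). In these 3 genes every LSC library lay above both LSK libraries. The mitochondrially encoded transcripts summed to 20668 to 45959 RPKM in KO LSC against 10209 to 16258 RPKM in KO LSK. The neutrophil markers summed to 31522 to 55005 RPKM (4 to 5 above the lowest value) against 2683 to 4385 RPKM (6 to 7 above it). For the stem cell markers it was 1.34 to 304 RPKM (1 above it) against 1343 to 1616 RPKM (10 above it). Features above the lowest value were fewer in KO LSC, as given above, and the part of these differences in the result was not tested.

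The other members called higher in KO LSC than in KO LSK were Rps21 (1.93), Rps26 (1.68), Rpl23 (1.65), Rpl21 (1.50) and Rpl37 (1.26), with limma adjusted p of 0.0105 to 0.0399. Rps26, a protein at the mRNA exit, had 1769, 4309 and 4841 RPKM in KO LSC against 831 and 1293 RPKM in KO LSK. Of the members called lower, Rpl39l stood at the lowest value in 3 of 3 KO LSC libraries (limma adjusted p = 9.6e-05). It had only 1.67 and 2.37 RPKM in KO LSK, close to the detection limit. Few features were detected in KO LSC, as given above, so a loss of Rpl39l cannot be told from shallow sampling there. By separation alone 16 members were higher and 11 lower in every library, against 1.22% and 75.2% of all genes. Under quantile normalisation the split of calls turned to 2 higher (Rpl31 and Rps18) and 8 lower (Rpl7, Rpl37a, Rpl39l, Rps3 and Rps25 among them). Of all 13485 genes tested, 225 were called higher and 5170 lower under that normalisation. Without KO LSK 1 the calls were 3 (Rps9 and Rps18 higher, Rpl39l lower), and without the library labelled KO LSC 2 they were 6 higher and 4 lower, with a median of 0.0051. Rpl31, Rps18 and Rps9 were among those 6 (differences of 2.39, 2.52 and 1.55, limma adjusted p = 0.0377, 0.00706 and 0.0154), and Rps26 and Rpl37 were not (limma adjusted p = 0.0610 and 0.0696). Of all genes, 0.698% were called higher and 58.9% lower without the library labelled KO LSC 2.

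The difference between both genotype effects, KO against WT in LSC minus KO against WT in LSK, had a median of -0.65 (log2) over members and -0.78 over all genes. Limma called 0 of 79 members, against 0.934% higher and 5.15% lower of all genes. An unadjusted limma p under 0.05 was found in 3 members, against 2053 of the 13485 genes tested. Among those 3 members were Rpl39l (-0.60 ± 0.23, limma adjusted p = 0.258) and Rps15 (-1.37 ± 0.58, limma adjusted p = 0.316). Of the other large subunit members Rpl29 had the smallest p (-3.75 ± 2.35, limma adjusted p = 0.546). It had 349.6, 1200.2 and 12.2 RPKM in KO LSC against 1833, 1559.6 and 1082 RPKM in WT LSC, and the ranges overlapped. The higher level of Rps9 in KO LSC than in WT LSC was not shown to differ from that in LSK cells (difference of effects 0.80 ± 0.51, limma adjusted p = 0.552). Without the library labelled KO LSC 2 the median was -0.79 and 0 members were called.

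**Figure D4:**
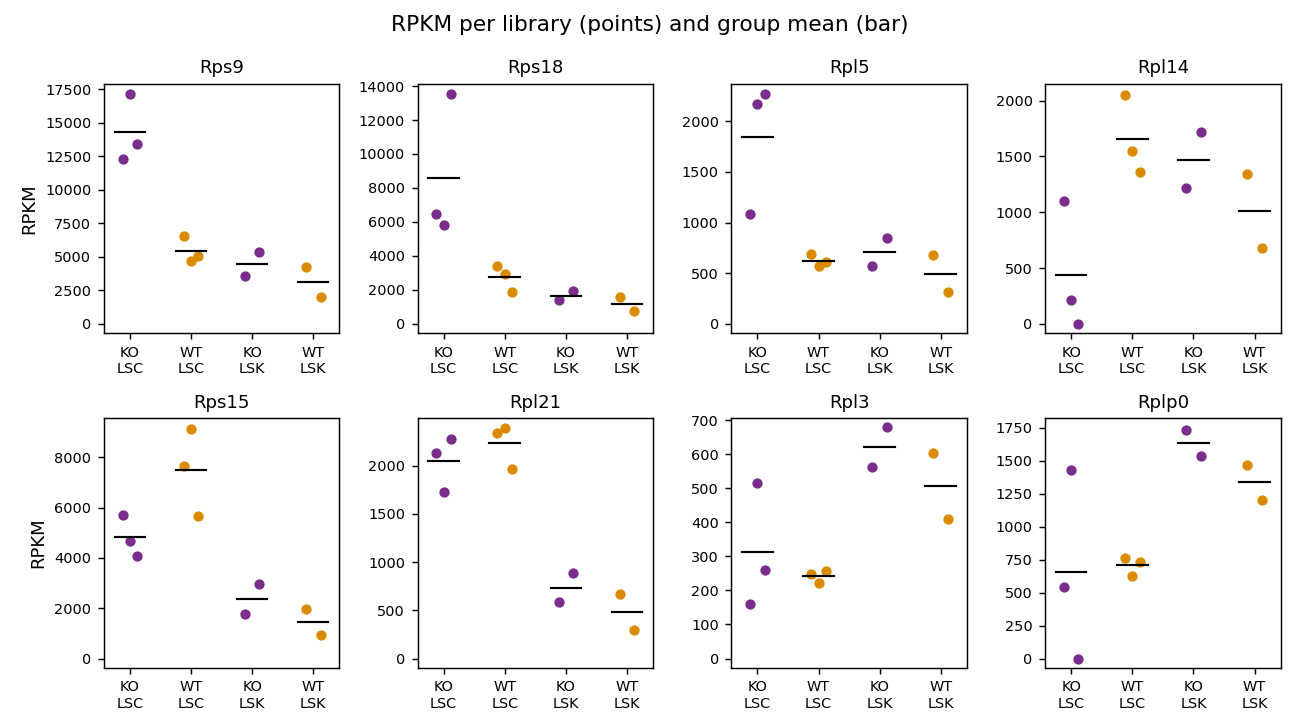
RPKM of 8 members (panels) in the 10 libraries of the CD93 experiment (points) with group means (bars). KO LSC and KO LSK are purple, WT LSC and WT LSK orange. Rps9 and Rps18 are highest in KO LSC and Rpl14 lowest there, Rpl5 is higher in KO LSC than in WT LSC, Rps15 and Rpl21 are higher in LSC than in LSK of the same genotype, and Rpl3 and Rplp0 are lower in WT LSC than in WT LSK.

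In the comparisons of the CD93 experiment that involve LSC, members with a known place in blood disease or in the ribosome's active parts did not move as blocks. Of the Diamond-Blackfan genes, Rps24 was called higher in WT LSC than in WT LSK, and Rps26 in KO LSC than in KO LSK. Rps24 had 2912, 3030.5 and 2756 RPKM in WT LSC against 1294 and 608 RPKM in WT LSK, without overlap. Rps19, the gene most often hit in that anaemia, had 1204, 3567 and 2668 RPKM in KO LSC, 1855, 1112 and 881 RPKM in WT LSC, 1712 and 2049 RPKM in KO LSK and 1659 and 941 RPKM in WT LSK. Its KO against WT difference in LSC was 0.89 ± 0.51 and its WT LSC against LSK difference -0.03 ± 0.57 (limma adjusted p = 0.437 and 0.973), neither past the threshold. Rps14, the 5q- gene, was among the 5 highest members in both LSK groups, with 3422 and 3862 RPKM in KO LSK and 3272 and 1782 RPKM in WT LSK. In LSC it had 4880.3, 2702 and 3869 RPKM in KO LSC against 3916, 1511 and 1056 RPKM in WT LSC, with overlap (difference 1.01 ± 0.52, limma adjusted p = 0.345). Rpl35a had 561, 1274 and 4849 RPKM in KO LSC against 806, 904 and 814 RPKM in WT LSC, an interval of values in KO that encloses the WT values.

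The stalk proteins, which recruit elongation factors, differed from one another. Rplp0 had 546, 1431 and 0.003 RPKM in KO LSC, while Rplp1 had 3953, 3001 and 2689 RPKM and Rplp2 1747, 1998 and 2459 RPKM there. In WT LSC Rplp1 had 4161, 3121 and 1748 RPKM and Rplp2 1889, 1412 and 1203 RPKM. Against WT LSK their differences were 1.25 ± 0.53 for Rplp1 and 1.16 ± 0.46 for Rplp2, against -0.91 for Rplp0, and none passed the test (limma adjusted p = 0.0916, 0.0782 and 0.827). In the model of WT LSC and WT LSK alone, Rplp0 was called lower and the other stalk genes were not called. Rpsa, also known as the laminin receptor, was called higher in WT LSC, with 1581, 1901 and 1206 RPKM against 556 and 354 RPKM in WT LSK. Rpl11, which binds the 5S RNA together with Rpl5, had 522, 507 and 244 RPKM in KO LSC against 568, 294 and 183 RPKM in WT LSC. The ranges of Rpl11 overlapped, unlike those of Rpl5 (difference 0.36 ± 0.67, limma adjusted p = 0.983). Rps6, the target of S6 kinase, had 548, 1753 and 1232 RPKM in KO LSC against 782, 414 and 572 RPKM in WT LSC (difference 0.89 ± 0.58, limma adjusted p = 0.522).

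Other members named for their roles showed the spread of the LSC libraries. Rpl10, which completes the large subunit late in its assembly, had 440.2, 336 and 874 RPKM in KO LSC against 614, 507 and 512 RPKM in WT LSC (limma adjusted p = 1). Rps27a, made as a fusion with ubiquitin, had 1044, 740.5 and 587 RPKM in KO LSC against 1159, 1158 and 804 RPKM in WT LSC (limma adjusted p = 0.823). Rpl38, known for its part in translating Hox mRNAs in mouse embryos, had 898, 1044 and 15.6 RPKM in KO LSC against 1547, 762 and 833 RPKM in WT LSC (limma adjusted p = 0.537). Each KO range overlapped its WT range. Rpl39 had 108, 59.4 and 666 RPKM in KO LSC against 805, 773 and 295 RPKM in WT LSC, and Rps4x, the small subunit gene on the X chromosome, 1395, 1133 and 1519 RPKM in KO LSC against 1267, 1591 and 856 RPKM in WT LSC.

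MCP against vehicle in LSC asked what the drug changed in mice with established CML. The members were a little higher after MCP almost throughout: 77 of 80 had a positive difference, 2 a negative one (Rpl3l and Rpl39l) and Rpl10l none. The median was 0.25 (log2), 0.23 for the large and 0.28 for the small subunit, against -0.18 over all 14005 genes tested. Limma called 8 members higher and 0 lower of 77, against 0.521% and 1.80% of all genes. An unadjusted limma p under 0.05 was found in 60 members, against 3226 of the 14005 genes tested. In 57 members every MCP library lay above every Veh library, against 4.91% of all genes, and in 1, Rpl3l, every one lay below, against 25.6%.

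Rpl35a (chr16:33056453-33060189, GRCm38, plus strand), a Diamond-Blackfan gene, had the largest difference among the called members. It had 221, 219.8 and 221 RPKM in MCP LSC against 146, 166 and 138 RPKM in Veh LSC, without overlap (difference 0.56 ± 0.08, limma adjusted p = 0.0251). Rpl36 had 286, 269 and 284 RPKM in MCP LSC against 194, 213 and 210.3 RPKM in Veh LSC (difference 0.44 ± 0.07, limma adjusted p = 0.0266). Rpl27a had 363, 347 and 324 RPKM in MCP LSC against 256, 273 and 237 RPKM in Veh LSC (difference 0.43 ± 0.08, limma adjusted p = 0.0409). All MCP values of these genes lay above all Veh values. Rpl37 had 532, 599 and 596 RPKM in MCP LSC against 423, 452 and 413 RPKM in Veh LSC, and Rpl13a 1444, 1291 and 1344 RPKM against 1026, 1102 and 980.1 RPKM in Veh LSC. The remaining called members were Rpl10a, which forms a mobile arm of the large subunit, Rpl37a and, as the 1 small subunit member, Rps24. Their differences were 0.34 ± 0.06, 0.37 ± 0.07 and 0.38 ± 0.07 (limma adjusted p = 0.0422, 0.0462 and 0.044).

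The calls lie close to the threshold, and 6 further members had a limma adjusted p of 0.0510 to 0.0589 (Rpl31, Rpl34, Rpl26, Rps27a, Rps18 and Rps15a). Without Veh LSC 1 or without Veh LSC 3 there were 0 calls, without Veh LSC 2 there were 2, without MCP LSC 1 or MCP LSC 3 there were 3, and without MCP LSC 2 there were 5. Scaled to the same column total, 7 members were called higher and 0 lower, against 98 and 1639 of the 14005 genes tested. The median was then 0.12 with 68 members positive, while the median over all genes was -0.30. Elane, a granulocyte progenitor gene, moved in the same direction, with 868, 929 and 900.2 RPKM in MCP LSC against 480.3, 524 and 463 RPKM in Veh LSC. The summed level of the 4 granulocyte progenitor markers was 4588 to 4744 RPKM in MCP LSC against 3009 to 3251 RPKM in Veh LSC, with all 4 above the lowest value in every library, and that of 10 stem cell markers was 218 to 228 RPKM in MCP LSC against 337 to 354 RPKM in Veh LSC. The 6 mitochondrially encoded transcripts summed to 15930.1 to 16392 RPKM in MCP LSC against 13590 to 14222 RPKM in Veh LSC, and the 6 mast cell and basophil markers to 74.9 to 82.0 RPKM in MCP LSC against 228 to 242 RPKM in Veh LSC, without overlap in either. Features above the lowest value also differed, as given above, and the part of these differences in the result was not tested.

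Rpl22, a protein that ribosomes can do without and that is known for its part in lymphocyte development, behaved unlike the others. It had 844, 1315 and 1326 RPKM in MCP LSC against 931, 236 and 597 RPKM in Veh LSC. The groups overlapped, and the difference of 1.16 ± 0.46, the largest of all members, did not pass the test (limma adjusted p = 0.193). The smallest differences among the tested members were those of Rps29 (0.03 ± 0.21), Rpl4 (0.04 ± 0.07) and Rps2 (0.06 ± 0.09), with limma adjusted p of 0.740 to 0.945. Rpl4, which lines the exit tunnel, had 1391, 1425 and 1449 RPKM in MCP LSC against 1319, 1498 and 1333 RPKM in Veh LSC, with overlap.

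The difference between MCP and Veh was larger in members with a short coding sequence. Spearman's rho between the difference and the coding length was -0.46 over 77 members, and the median difference was 0.36 in the 25 members of up to 396 bases, 0.31 in the 27 of 399 to 564 bases and 0.19 in the 25 of 576 to 1257 bases. The same relation was present with rho = -0.24 over 10882 genes with a coding length, and with -0.15 over the 1627 of them no longer than the members' upper quartile. In LSK cells the KO against WT difference had rho = -0.40 with coding length over members and -0.22 over 10811 genes (-0.13 over the 1647 no longer than the members' upper quartile), and WT LSK 2 minus WT LSK 1, libraries of 1 genotype, had 0.30 over members. All members share the library, its depth and its RNA quality, so these values describe the libraries and carry no p. The 13 members with the C and pyrimidine pattern at the start had a median MCP difference of 0.33, and the 44 other matched members that were compared had 0.30.

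**Figure D5:**
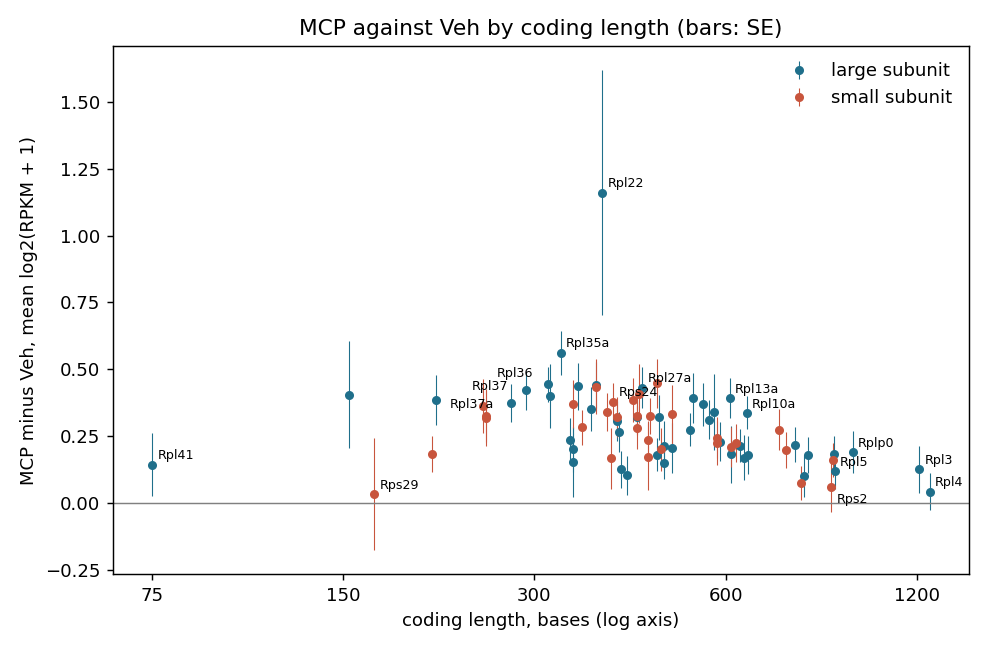
MCP minus Veh difference of mean log2(RPKM + 1) with its SE (y axis) against coding length in bases (log x axis) for 77 members, large subunit in blue and small subunit in red. Names mark the 8 called members and 8 others. All 77 points lie above 0, with Rpl22 at 1.16, and the longest members, Rpl3 and Rpl4, lie at 0.13 and 0.04.

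Ribosomal protein genes have many processed pseudogenes, and reads shared with them can shift a member's value. Features named as pseudogenes of a member (4 in the CD93 tables, 2 in the drug tables) summed to 3261, 10178 and 9077 RPKM in KO LSC, 4680.5, 3525 and 4205 RPKM in WT LSC, 3507 and 5004 RPKM in KO LSK and 4147 and 2229.9 RPKM in WT LSK. Their parent genes were Rpl31, Rpl34, Rps6 and Rps15a, so the values of these 4 members are uncertain. Counted by symbols made of the parent's symbol and -ps, GENCODE M21 names 24 pseudogenes each of Rpl31 and Rps12, 15 of Rpl21 and none of Rps9. Pseudogenes under other names were not counted, so the lack of such a symbol does not show that a member has no pseudogene.

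Genes that work beside the members were counted from lists chosen with earlier results of these data known. Of 8 ribosomal protein genes outside the symbol rule, 7 were tested in the CD93 experiment, and 1 was called higher in WT LSC than in WT LSK, against 1.45% of all genes. This was Fau, which encodes a small subunit protein and had 1500.4, 1841 and 1261 RPKM in WT LSC against 416 and 185 RPKM in WT LSK, without overlap (difference 2.44 ± 0.53, limma adjusted p = 0.00632). After MCP, 2 of the 8 tested, Rpl36al and Rps27rt, were called higher, against 0.521% of all genes, with 511, 498 and 513 RPKM in MCP LSC against 357, 422 and 376 RPKM in Veh LSC for Rpl36al (0.40 ± 0.08, limma adjusted p = 0.0455). Rps27rt, a retrotransposed copy of Rps27 that may share its reads, had 718, 776 and 728 RPKM in MCP LSC against 512, 578 and 519 RPKM in Veh LSC.

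Of 16 factors that escort single ribosomal proteins or act late in assembly and export, 6 were called lower in KO LSC than in WT LSC, 5 lower in WT LSC than in WT LSK, 12 lower in KO LSC than in KO LSK, and 0 in either direction between KO and WT LSK or between MCP and Veh. The difference of genotype effects was called lower for 3, against 5.15% of all genes. Pdcd2, a chaperone of Rps2, was at the lowest value in 3 of 3 KO LSC libraries against 91.6, 162 and 75.6 RPKM in WT LSC (limma adjusted p = 0.00799 for the difference of effects). Sbds, which frees the large subunit of a late assembly factor and is mutated in human Shwachman-Diamond syndrome, was likewise at the lowest value in KO LSC against 94.6, 70.8 and 53.3 RPKM in WT LSC (0.0103). Aamp, whose yeast counterpart escorts Rpl10, was the other gene and again at the lowest value in KO LSC, with 51.4, 306 and 56.7 RPKM in WT LSC (0.033). Without the library labelled KO LSC 2 the adjusted p of these 3 was 0.0160 for Pdcd2, 0.0201 for Sbds and 0.0541 for Aamp (limma), and of the 16 factors 3 were called lower in KO LSC than in WT LSC and 14 lower in KO LSC than in KO LSK. The share of all genes called lower was 8.74% for KO LSC against WT LSC, 42.3% for WT LSC against WT LSK and 61.7% for KO LSC against KO LSK, and fewer features were detected in KO LSC libraries. Without the library labelled KO LSC 2 it was 8.86% for KO LSC against WT LSC and 58.9% for KO LSC against KO LSK. Of 10 regulators of 5'TOP translation or of the free ribosomal protein checkpoint, 1 was called lower in KO LSC than in WT LSC (Rps6kb1), 6 lower in WT LSC than in WT LSK and 8 lower in KO LSC than in KO LSK; without the library labelled KO LSC 2, the first count was 1 (Larp1) and the last was 9, and the difference of genotype effects was called lower for Larp1. The nascent chain factors Naca and Btf3 passed in no comparison.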

How the data were processed

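Per the labels' protocols, 16 libraries were prepared from total RNA of sorted cells (SMART-Seq v4 kit) and sequenced. The authors deposited 1 table per library of RPKM per gene, a unit that no label names and that was inferred here. The build was GRCm38 (mm10), per the submitters' processing notes; which aligner, counter and annotation were used is, for all 3, not given in the sources used here. Values of 0.003 and 0.001, the lowest listed, stand for no signal. No counts were used, so no count model was fitted and no counting interval computed; read depth was estimated from single-exon genes where the values fell on clear steps.

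Groups followed the sample titles. Values were analysed as log2(RPKM + 1), which understates changes of low genes, with limma 3.58.1 in R 4.3.3 and an intensity trend in the variance prior. A single model held the 4 groups of the CD93 experiment, and another held MCP and Veh. The SE of each comparison in the CD93 experiment thus drew on the spread of all 4 groups, KO LSC among them. That spread was unequal, with a median range over members of 1.45 (log2) in KO LSC and 0.61 in KO LSK. The test covered genes that reached 1 RPKM in 2 or more libraries of an experiment (13485 and 14005). Its p-values, two-sided, were corrected over those genes by the Benjamini-Hochberg method, and the threshold was 0.05. The models were also run on simulated data in which all groups shared the same spread for a gene. The real groups did not, so that run does not cover unequal spread. The alternatives were quantile normalisation, scaling by column total, a pseudocount of 0.1, no filter, a model of the compared groups alone, a replicate block, leaving out each library and a widened list. A crossed block was added after seeing the data. Named were members past the threshold (the 10 with the largest difference where more passed, with the rest by name), the smallest p of each subunit where fewer than 4 passed, the 5 highest and lowest members of each group, and members with set roles; members singled out because their groups did not overlap, because a library stood apart or because they lay near the threshold were chosen after their values were seen. Results of some single members are not reported here. Members and lists were chosen with earlier results of these data known. Summed shares and medians over members have no test. Positions and coding lengths came from GENCODE M21 (GRCm38), and start sequences from RefSeq (GRCm38.p6).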

Additional observations from a re-analysis of the deposited data

Results flagged for a closer look

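Rpl14, a large subunit gene, is singled out because its LSC and LSK libraries separated in opposite directions in the 2 genotypes. It had 1104, 214 and 0.003 RPKM in KO LSC against 1217 and 1719 RPKM in KO LSK, and 2049, 1552 and 1356 RPKM in WT LSC against 1346 and 677 RPKM in WT LSK. Every KO LSC library thus lay below both KO LSK libraries, and every WT LSC library above both WT LSK libraries. The difference of the effects was -5.32 ± 3.56 (log2, SE), which did not pass the test (limma, Benjamini-Hochberg adjusted p = 0.567), and the value in KO LSC 3 was the lowest of the table.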

How the results depend on the processing

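Direction and side of the threshold were kept in 198 of 320 refits of the 29 called members named, 122 refits lost the call and 0 took the opposite direction. With the replicate block, members called were 0 for KO against WT LSC, 5 for WT LSC against WT LSK (4 higher, 1 lower), 5 for KO LSC against KO LSK (3 higher, 2 lower) and 0 for MCP against Veh; the other counts stayed at 0. Correlations of same-numbered libraries' deviations were -0.023 to 0.0035 in LSC, -0.28 in LSK and -0.0084 to 0.014 in the drug experiment. The LSC and drug values gave no sign that the numbers pair the libraries, but they cannot exclude it. With 2 libraries per LSK group the sign of the LSK value depends on the numbering alone, so it cannot decide the question. The crossed block in LSK, chosen after seeing the data, called 0 members. Without a filter, 0 members were called for KO against WT LSC and 2 for MCP against Veh. With only the 2 compared groups in the model, 1 member was called higher and 0 lower for KO against WT LSC. For KO against WT LSK that model called 0 members. It called 15 higher and 1 lower for WT LSC against WT LSK, and 6 higher and 1 lower for KO LSC against KO LSK. Quantile normalisation called 19 members in WT LSC against WT LSK, against 625 higher and 3872 lower of 13485 genes. The same normalisation gave medians of -0.058 for KO LSC against KO LSK, the opposite sign, and 0.22 for MCP against Veh, where scaling by column total gave 0.12. Quantile normalisation moved the median of all genes in MCP against Veh to -0.027 and in KO LSC against KO LSK to -1.14.

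Leaving out each library gave 0 to 1 calls and medians of -0.25 to 0.0068 for KO against WT LSC (0.0048 without KO LSC 3 and 0.0068 without WT LSC 1, the opposite sign). For KO against WT LSK it gave 0 to 1 calls and medians of 0.11 to 1.11. For WT LSC against WT LSK it gave 4 to 18 calls and 0.34 to 1.37, and for KO LSC against KO LSK 3 to 14 calls and -0.20 (without KO LSK 1, the opposite sign) to 0.34. For the difference of genotype effects it gave 0 to 1 calls and -1.10 to -0.22, and for MCP against Veh 0 to 5 calls and 0.22 to 0.30. The cause of these shifts was not tested. Where a group kept 1 LSK library, it was assumed to vary like the other groups. Depth is unknown for 9 libraries, KO LSC among them, so absence of a low member cannot be told from shallow sampling there.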
